A study of Mus musculus with 34 samples.

Results

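The promoters of 364 mouse genes named Zfp plus a number, of 21938 protein-coding promoters in all, had a higher median H3K4me3 signal than the other protein-coding promoters in each of 4 libraries from villus cells of the small intestine. A member is the window of 1000 bp on each side of the 5′ end of such a gene in GENCODE M21 on mm10, and Zfp36, whose protein has another kind of zinc finger, is no member. The value of a window is its mean H3K4me3 signal, the coverage per base after scaling of each library to the same number of tags. A member was counted in a cluster when at least 3 Zfp genes had their 5′ ends within 500 kb, which placed 217 members in 33 clusters and left 147 outside.

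Most Zfp genes encode proteins with tandem C2H2 zinc fingers that read DNA sequence. Most belong to the KRAB family, in which an N-terminal KRAB domain recruits Trim28 (KAP1), which brings the methyltransferase Setdb1 and heterochromatin protein 1, so that H3K9me3 is laid down at retroelements and imprinted loci. These genes arose by repeated duplication, and many lie in clusters, some of which hold near-identical copies. H3K4me3, measured here, is a mark of euchromatin found at promoters. Transcription was not analysed here, so a marked promoter is not shown to be in use.

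The assay was CUT&RUN, in which an antibody directs micrococcal nuclease to the chromatin it binds. H3K4me3 was profiled in cells scraped from small intestinal villi of 2 wild-type and 2 ApcMin/+ mice, all C57BL/6J and 5 weeks old according to the labels, whereas the methods state a slightly older age. ApcMin/+ mice carry 1 mutant Apc allele in every cell of the body, and the labels give no treatment for either genotype. The H3K9me3, H3, no-antibody, RNA-seq and older-mouse samples of the series were not analysed here. Depth by the track headers was 1430000 tags in wild-type replicate 1, 4790000 in wild-type replicate 2, 3700000 in ApcMin/+ replicate 1 and 5470000 in ApcMin/+ replicate 2. ApcMin/+ replicate 1 stood apart from the rest, with a median of 3.83 on the log2(signal + 1) scale over the 9930 promoters whose signal averaged 2 or more, against 2.02 to 2.47 in the other libraries. Enterocyte genes had the mark at 11 of 12 promoters at this level, and 0 of 6 immune, 0 of 5 mesenchymal, 0 of 4 neural and 0 of 4 other-organ marker promoters reached it. The methods state 2 mice per genotype, but the labels do not tie a library to a mouse, so p-values measure the spread between libraries, which may be technical.

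Sequences of 6 promoters show the range that the members covered. RefSeq lists a promoter for 299 of the 364 members, and the start lay within 50 bp of the GENCODE 5′ end in 225. The first pair had strong signal with few CpG dinucleotides, the next was the strongest member with a KRAB-like motif, the fourth was CpG-rich and strong, the fifth CpG-rich and near 0, and the last had no fragment in any library. Each runs 5′ to 3′ on the strand of the gene from 250 bases before the RefSeq start, on GRCm38.p6 (mm10), with every CpG dinucleotide in capitals.
Zfp950: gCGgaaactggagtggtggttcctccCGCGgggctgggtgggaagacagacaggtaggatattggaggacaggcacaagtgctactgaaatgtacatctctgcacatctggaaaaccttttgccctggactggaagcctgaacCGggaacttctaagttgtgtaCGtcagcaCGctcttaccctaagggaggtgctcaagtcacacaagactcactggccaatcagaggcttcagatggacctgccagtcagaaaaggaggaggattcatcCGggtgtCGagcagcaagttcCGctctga
Zfp710: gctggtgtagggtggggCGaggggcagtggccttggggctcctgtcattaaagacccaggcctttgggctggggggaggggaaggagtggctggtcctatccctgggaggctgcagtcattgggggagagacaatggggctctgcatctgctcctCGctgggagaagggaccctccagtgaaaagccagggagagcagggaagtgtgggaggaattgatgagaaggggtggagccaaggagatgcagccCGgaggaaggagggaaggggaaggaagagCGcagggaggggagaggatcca
Zfp84: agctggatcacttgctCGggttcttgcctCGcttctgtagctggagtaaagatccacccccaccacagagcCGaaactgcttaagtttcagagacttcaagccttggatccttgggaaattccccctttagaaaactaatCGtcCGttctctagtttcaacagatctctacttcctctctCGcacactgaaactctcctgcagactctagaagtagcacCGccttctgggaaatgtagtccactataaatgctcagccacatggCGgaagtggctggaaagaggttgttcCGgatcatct
Zfp687: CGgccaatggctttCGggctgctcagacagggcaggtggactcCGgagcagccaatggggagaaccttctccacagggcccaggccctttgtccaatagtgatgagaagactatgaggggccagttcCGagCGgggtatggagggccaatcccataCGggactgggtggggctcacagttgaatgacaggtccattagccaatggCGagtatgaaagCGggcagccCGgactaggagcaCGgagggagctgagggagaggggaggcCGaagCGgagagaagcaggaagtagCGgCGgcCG
Zfp618: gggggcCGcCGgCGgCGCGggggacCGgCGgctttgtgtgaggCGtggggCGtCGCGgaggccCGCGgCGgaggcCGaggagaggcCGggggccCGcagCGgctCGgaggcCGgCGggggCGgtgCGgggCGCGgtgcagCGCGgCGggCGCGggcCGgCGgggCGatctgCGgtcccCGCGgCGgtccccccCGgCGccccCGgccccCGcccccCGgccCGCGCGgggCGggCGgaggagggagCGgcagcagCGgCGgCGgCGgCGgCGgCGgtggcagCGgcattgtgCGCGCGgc
Zfp352: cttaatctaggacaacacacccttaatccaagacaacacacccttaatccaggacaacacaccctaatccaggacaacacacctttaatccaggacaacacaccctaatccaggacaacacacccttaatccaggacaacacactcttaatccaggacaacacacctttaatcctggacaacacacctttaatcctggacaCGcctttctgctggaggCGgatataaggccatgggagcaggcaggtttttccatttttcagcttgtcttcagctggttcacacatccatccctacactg
Zfp950 (chr19:61140791-61141090, minus strand) had signal of 6.97 in wild-type replicate 1, 4.95 in wild-type replicate 2, 22.2 in ApcMin/+ replicate 1 and 5.10 in ApcMin/+ replicate 2, the order used throughout, with 9 CpG in these 300 bases. Zfp710 (chr7:80024564-80024863, plus strand) had 4 CpG and signal of 9.71, 3.89, 18.2 and 5.06. Both were thus above the median promoter in every library despite few CpG. Zfp84 (chr7:29768302-29768601, plus strand) had 9 CpG and 1 CCGGAA hexamer, the core that ETS factors bind, and signal of 7.32, 5.01, 36.5 and 8.23. The choice of this sequence required a cluster, a KRAB-like motif and this hexamer. Zfp687 (chr3:95015408-95015707, minus strand) had 15 CpG and signal of 13.6, 5.45, 27.2 and 7.30. Zfp618 (chr4:62965317-62965616, plus strand) had 59 CpG, more than any of the others shown, and signal of only 0, 0.313, 0.405 and 0.0912. Zfp352 (chr4:90218570-90218869, plus strand), a gene known from the early embryo, had 2 CpG and was at 0 in every library.

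The median Zfp promoter had signal of 2.79 and 2.13 in wild-type mice and 8.18 and 3.08 in ApcMin/+ mice. The median of the 21574 other promoters was 1.39, 0.946, 1.50 and 1.37 in the same libraries. The Zfp median was higher in 4 of 4 libraries, by 1.45 ± 0.67 (SD, n = 4) on the log2 scale. A two-sided exact sign-flip test over the 4 libraries gave p = 0.13, the smallest value that 4 libraries allow. Without ApcMin/+ replicate 1 the difference was 1.11. In windows with at least 90% unique 25-mers, sequences of 25 bases that occur once in the genome, it was 0.89 ± 0.23 (SD, n = 4), higher in 4 of 4 libraries, over 235 members and 16076 others. Compared by their means instead of medians, the groups differed by 0.39. The highest Zfp promoter was at 15.2. The highest other promoter was at 112 over all windows, and at 28.3 in windows with at least 90% unique sequence, and 143 other promoters (0.663%) lay above every member.

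The 4 libraries averaged a signal of 2 or more at 262 members (72.0%) and at 9668 of the 21574 others (44.8%). The members just inside and just outside this level were at 2.01 and 1.86. Over the members at this level, signal in the window averaged 4.53, 2.88, 12.5 and 4.07 in the 4 libraries. The other promoters at this level averaged 5.01, 3.28, 14.5 and 4.43, higher in each library. The quartiles of the members were 1.25 and 6.58, and those of the other promoters were 0.428 and 5.83, so that 115 members (31.6%) lay above the upper quartile of the others. In bulk villus cells, a lower share of cells with the mark and less of the mark per cell cannot be told apart. In the individual libraries, 61.8% and 51.6% of members in wild-type and 73.9% and 66.5% in ApcMin/+ had signal of at least 2. The ranking of the members was shared between libraries, with Spearman's rho from 0.87 to 0.91 over the 364 members in the 6 pairs of libraries, which share the windows and their base composition.

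**Figure D1:**
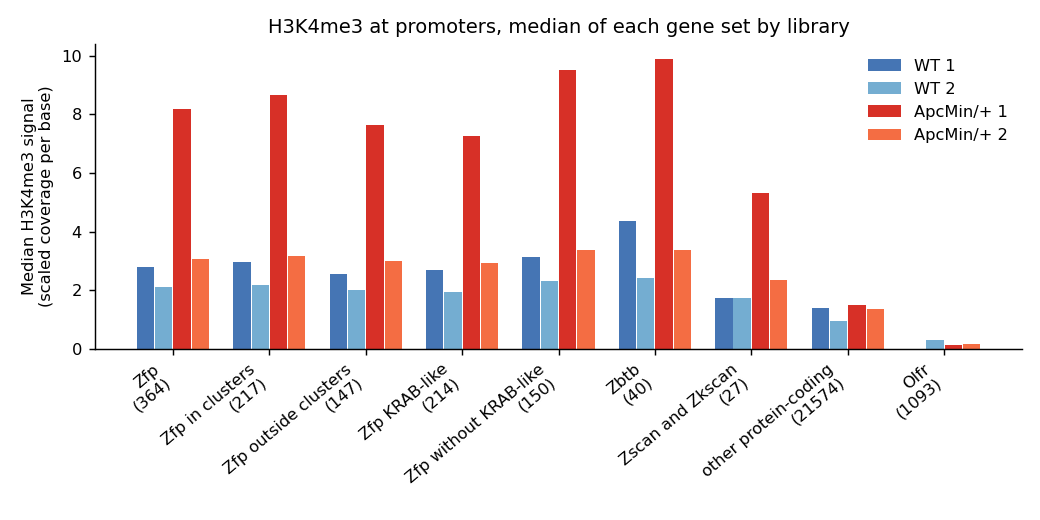
Bars give the median H3K4me3 signal (y axis, scaled coverage per base) of each gene set (x axis, number of promoters in brackets) in each of the 4 libraries. The median Zfp promoter was above the median other protein-coding promoter in each library, and ApcMin/+ replicate 1 was the highest library for every Zfp set shown.

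Over all windows, other families of DNA-binding genes placed the Zfp promoters in the middle. The 40 Zbtb genes, which join zinc fingers to a BTB domain, had medians of 4.36, 2.43, 9.91 and 3.38, and 77.5% had a mean of at least 2. The 27 Zscan and Zkscan genes, whose zinc fingers go with a SCAN domain, had medians of 1.74, 1.73, 5.31 and 2.36, and 55.6% reached 2. Zfp promoters were 0.31 ± 0.23 (SD, n = 4 libraries) below Zbtb and 0.49 ± 0.18 above Zscan and Zkscan on the log2 scale, each in the same direction in 4 of 4 libraries (exact sign-flip p = 0.13 for both, the smallest value possible). Windows with at least 90% unique 25-mers made up 95% of Zbtb, 66.7% of Zscan and Zkscan and 64.6% of Zfp promoters. Median ratios of observed to expected CpG were 0.71, 0.46 and 0.50. Zfp members in such unique windows had medians of 3.14, 2.41, 9.58 and 3.47, and 78.7% reached 2. These were above the medians of all Zbtb in ApcMin/+ replicate 2 and below them in the other libraries. Olfactory receptor genes, another large family in clusters, had 0 of 1093 promoters at a mean of 2, and their medians lay between 0 and 0.313.

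The excess over other promoters was larger where CpG content was low. The ratio of observed to expected CpG in the window had a median of 0.50 in members and 0.47 in the others. Between ratios of 0.3 and 0.4, 40 of 55 members (72.7%) had a mean signal of at least 2, against 24.6% of 1712 others. Between 0.4 and 0.5 the shares were 81.7% of 60 members and 51.5% of 2037 others. From 0.6 to 0.8 they were 90.4% of 73 members and 78.1% of 5577 others. At ratios of 0.8 or more they were 76.0% of 25 members and 82.6% of 1765 others. Below 0.2, 0 of 26 members and 3.45% of 5186 others reached a mean of 2. A cluster of 18 members on chromosome 4 had a median ratio of 0.19 and a median of 10.3% unique 25-mers. At many windows of this bin, absence of the mark and absence of mappable reads thus cannot be told apart. Zfp458, Zfp473, Zfp558 and Zfp759, also in this bin, had means from 4.24 to 7.30 at another annotated start. Over windows under a ratio of 0.6, the Zfp median was above that of the others by 2.28 ± 0.99 (SD, n = 4) on the log2 scale, higher in 4 of 4 libraries (exact sign-flip p = 0.13). At 0.6 or more the difference was 0.08 ± 0.05, higher in 3 of 4 libraries (exact p = 0.25). Signal and CpG ratio had a Spearman's rho of 0.47 over the 364 members, 0.27 over the 235 members with at least 90% unique sequence and 0.69 over the other 21574 promoters, given as a description since windows in a cluster share sequence.

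**Figure D2:**
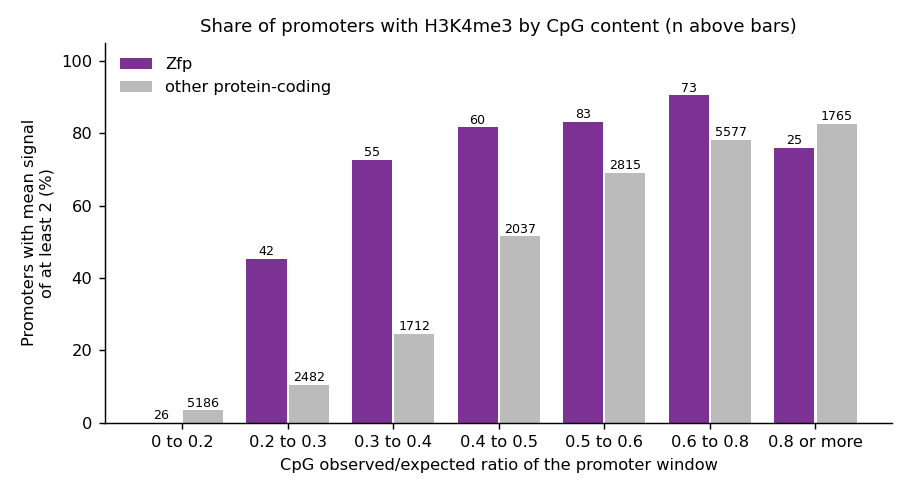
Bars give the percentage of promoters averaging 2 or more (y axis) among Zfp and other protein-coding promoters by the CpG observed/expected ratio of the window (x axis), with the number of promoters above each bar. The Zfp share exceeded the other share in the 5 bins from 0.2 to 0.8 and was below it at 0 to 0.2 and at 0.8 or more. Many Zfp windows in the lowest bin hold little unique sequence.

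Some members shared their window with another gene, which limits what their signal can be assigned to. For 45 members another protein-coding 5′ end lay within 2000 bp, and 93.3% of these had a mean of at least 2. Of the 319 members with a window of their own, 69.0% did, against 38.9% of such windows among the other genes. For windows shared with another gene, Zfp and other promoters differed by -0.07 ± 0.18 (SD, n = 4) on the log2 scale, with 2 of 4 libraries on either side (exact sign-flip p = 0.625).

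The 8 members highest in signal were Zfp646, Zfp143, Zfp408, Zfp263, Zfp84, Zfp768, Zfp62 and Zfp687, with means from 13.4 to 15.2. Of these 8, Zfp84 had a KRAB-like motif by the search used here. Zfp646 (chr7:127876221-127885996, plus strand) had signal of 13.0 and 9.48 in wild-type and 28.1 and 10.2 in ApcMin/+, and its start lies 607 bp from that of Zfp668, which is transcribed in the opposite direction. Zfp143 (chr7:110061217-110095394, plus strand), an activator of small nuclear RNA and many housekeeping promoters, had 8.72, 6.78, 37.2 and 7.59. Zfp408 (chr2:91643669-91649791, minus strand) had 10.2, 5.24, 34.3 and 9.85, with the start of Arhgap1 on the opposite strand 69 bp away. In each of these 3, ApcMin/+ replicate 1 was the highest library and wild-type replicate 2 the lowest.

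Of 22 members with a well-described role, 13 had a mean signal of at least 2. Among the retroelement and imprinting repressors, Zfp809, which silences murine leukaemia virus, had 5.93, 2.24, 15.6 and 6.56. Zfp568, a repressor of a placental Igf2 transcript, had 6.28, 3.23, 15.6 and 4.57, and Zfp445, an imprinting regulator, had 7.10, 2.22, 14.6 and 5.26. Zfp57, the other main imprinting regulator, was at 0, 0.418, 0 and 0.278. Zfp42 (Rex1), a marker of pluripotent cells, was at 0, 0.511, 0.359 and 0. The libraries of the genotypes overlapped for both Zfp57 and Zfp42.

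Other genes of this list had the mark, and they are grouped here by signal rather than by role. Zfp207, a mitotic spindle protein, had 2.09, 3.87, 18.5 and 4.07, and Zfp830, needed for genome integrity, had 3.83, 5.06, 19.5 and 8.93. Zfp148, a regulator that binds GC-rich sequence, had 8.50, 4.44, 25.2 and 6.80, and Zfp91, a ubiquitin ligase of the non-canonical NF-κB pathway, had a mean of 7.39. Zfp703, a corepressor first studied in breast cancer, had 7.11, 3.52, 26.3 and 5.72. Zfp644 and Zfp462, partners of the H3K9 methyltransferases G9a and GLP, were lower, at means of 3.01 and 2.64. Zfp281, listed with Zfp42 for stem cells and pluripotency, had a mean of 4.80, and Zfp106 had one of 3.83.

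Some genes of the list, again grouped by signal, were near 0. Among them, Zfp750 was listed for epithelium and cancer, as were the marked Zfp148, Zfp703 and Zfp91. Zfp536 and Zfp521, regulators of neural progenitors, had means of 0.184 and 0.359, Zfp423, which commits cells to the fat lineage, had 0.507, and Zfp750, a factor of epidermal differentiation, had 0.543. The windows of Zfp536, Zfp521 and Zfp423 were CpG-rich, with ratios of 0.72 to 0.91, and over 90% unique in sequence. The windows of these 4 genes, Zfp750 included, held from 0 to 6.25 fragments in single libraries. A count of 0 allows up to 3 fragments, which correspond to a signal of 1.05 in wild-type replicate 1 and of 0.274 to 0.405 in the other libraries.

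A further 15 members under 2 at the 5′ end reached 2 at another annotated transcript start. Zfp638, a factor of fat cell differentiation, was at 1.80 at its 5′ end and at 9.69 at its best start, where the libraries gave 10.4, 3.44, 18.7 and 6.21. Zfp217, an oncogene in human breast tumours, went from 0.487 to 2.70, and Zfp708, a repressor of a retroviral repeat, from 0.444 to 2.62. Zfp574, chosen after its values were seen, went from 1.01 to 8.93. With the best start for every gene, 75.8% of Zfp and 48.2% of other promoters had a mean of at least 2.

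The clustered median was slightly above the single median in each library, and medians of individual clusters ran from 0 to 8.10. Of the 217 clustered members 73.7% had a mean signal of at least 2, against 69.4% of the 147 single ones. The clustered median was 2.97, 2.19, 8.65 and 3.17, and the single median 2.57, 2.02, 7.65 and 3.01. The difference was 0.14 ± 0.06 (SD, n = 4) on the log2 scale, higher in 4 of 4 libraries (exact sign-flip p = 0.13, the smallest possible). It was 0.0077 at the best start of each gene, 0.0047 in windows of 2000 bp and -0.0063 by the mean, and 0.42 in windows of 500 bp. Among the clusters, 10 had every member at a mean of 2 or more, 21 had members on both sides and 2 had none.

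The 19 members on chromosome 13 from 67061170 to 67813740 had 15 at a mean of 2 or more, from Zfp759 at 0.169 to Zfp953 at 8.59. Zfp953 had 6.28, 3.86, 19.9 and 4.29. The 19 members on chromosome 17 from 21008903 to 22424222 had 17, from Zfp229 at 0.266 to Zfp53 at 10.7, where the libraries gave 7.32, 4.17, 24.6 and 6.86. Zfp229 and Zfp759 reached 4.31 and 4.24 at another annotated start. All members of both clusters had KRAB-like motifs. On chromosome 17 from 32788287 to 33629090, 10 of 11 had a mean of at least 2, from Zfp811 at 0.559 to Zfp472 at 9.54.

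Chromosome 7 held 88 members, of which 74 were in 9 clusters and 60 of these had a mean of at least 2. In the 15 genes from 29768552 to 30169750, 14 did, from Zfp382 at 1.57 to Zfp84 at 14.3. In the 12 from 24081924 to 24587641, 8 did, from Zfp111 at 0.442 to Zfp112 at 8.18. The 10 from 127233061 to 127876828 all did, with medians of 6.62, 3.61, 17.4 and 4.98, and only 4 of these had KRAB-like motifs. Zfp84 and Zfp646 thus shared their clusters with members several-fold lower.

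The repeated clusters on chromosomes 2 and 4 had little or no signal. In the 18 members on chromosome 4 from 145510759 to 147848366, the median signal was 0, 0.104, 0 and 0.183, and 2 had a mean of at least 2, with Zfp933 highest at 3.12. In the 4 on chromosome 2 from 175372436 to 175931100 every library was at 0. The median share of unique 25-mers was 10.3% in the first and 0% in the second. Over all members, 21 had under 10% unique 25-mers and 0 of these had a mean of 2, and 11 of the 12 members at 0 in every library were among them. The 12 were Zfp352, Zfp781, Zfp965, Zfp966, Zfp967, Zfp968, Zfp969, Zfp97, Zfp973, Zfp978, Zfp980 and Zfp993. Zfp352 was the exception, with 52.9% unique 25-mers. Reads that fit several places carry low mapping quality and were left out before the tracks were made, so at these windows absence of the mark and absence of mappable reads cannot be told apart. The other cluster with no member at a mean of 2, 3 genes on the X chromosome from Zfp185 to Zfp92, was low, with medians of 0.349, 0.291, 1.89 and 1.11, and its 3 windows were at least 90% unique.

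Where sequence was at least 90% unique, 98 of 115 clustered (85.2%) and 87 of 120 single members (72.5%) had a mean of at least 2. The clustered median was then 0.35 ± 0.10 (SD, n = 4) above the single one on the log2 scale, higher in 4 of 4 libraries (exact sign-flip p = 0.13). KRAB-like members, 214 of the 364, were below the other Zfp genes over all windows, by -0.27 ± 0.09, and differed by 0.03 ± 0.07 in unique windows (exact p = 0.13 and p = 0.5). Neither the number of zinc fingers nor the length of the protein went with signal, with rho of 0.04 and 0.05 over the 364 members.

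**Figure D3:**
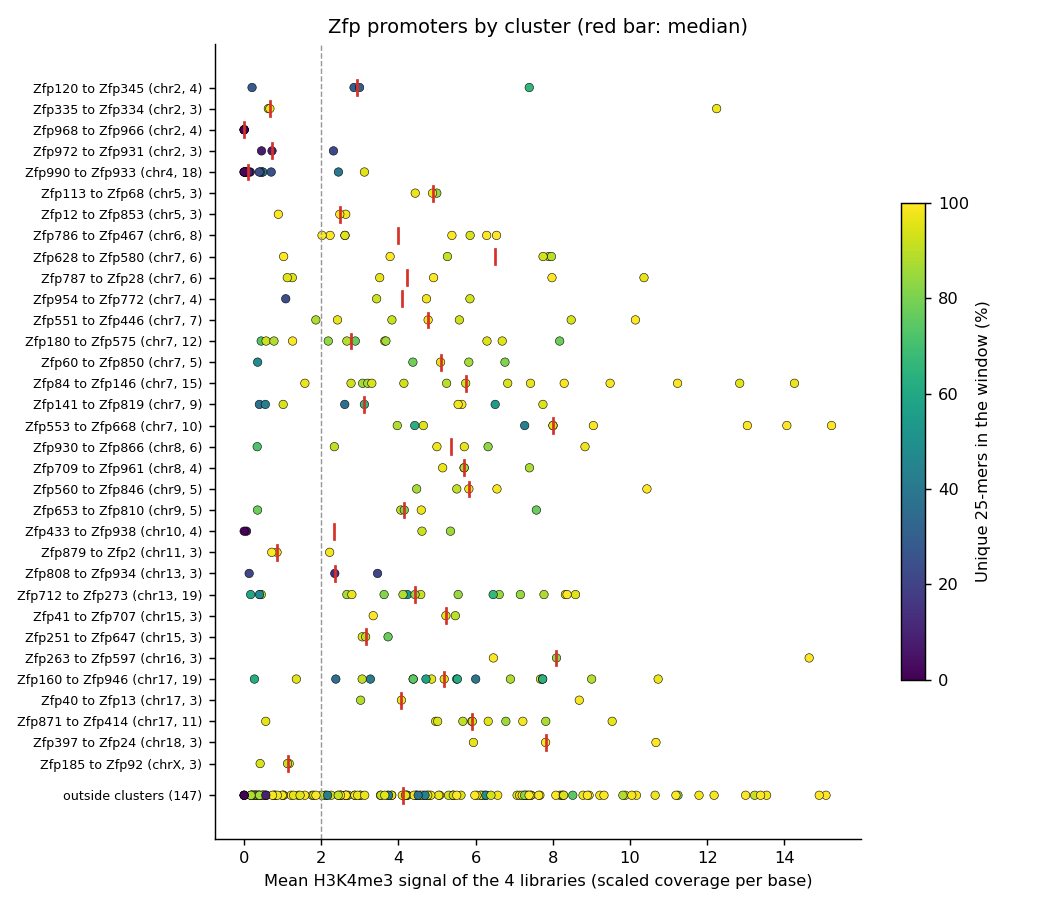
Each point is 1 Zfp promoter, at its mean H3K4me3 signal over the 4 libraries (x axis, scaled coverage per base), in the row of its cluster (y axis, first and last gene, chromosome and number of members) and coloured by the percentage of unique 25-mers; red bars are medians and the dashed line is at 2. The clusters on chromosomes 2 and 4 at or near 0 hold the darkest points, and the 10 genes from Zfp553 to Zfp668 on chromosome 7 are all to the right of 2.

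The mark at KRAB-like genes formed a narrow peak just downstream of the start. Averaged over all members, the maximum lay in the bins from 100 to 139 bp downstream of the 5′ end in all 4 libraries. Among promoters with a mean of at least 2, the 148 KRAB-like members had a maximum of 17.0, 9.09, 38.7 and 13.4, against 11.5, 6.15, 26.4 and 8.27 for the 114 other Zfp genes and 10.6, 6.76, 26.8 and 8.65 for the 9668 other genes. The width over which the average profile was at least 50% of its maximum was 280, 360, 220 and 360 bp at the KRAB-like members. It was 900, 960, 1120 and 1100 bp at the other Zfp genes and 900, 1000, 1240 and 1040 bp at the other genes. The KRAB-like profile was thus the tallest and narrowest of the 3 in every library, with no overlap in width.

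The KRAB-like and the other Zfp genes also differed in CpG, with median ratios of 0.41 and 0.60. Under a ratio of 0.6, the widths were 340, 360, 220 and 380 bp at 127 KRAB-like members and 420, 520, 800 and 560 bp at 50 other Zfp genes, a smaller gap than over all CpG ratios. Other genes with a ratio under 0.4 had widths of 580, 620, 840 and 720 bp (861 promoters), and the 59 Zfp promoters under 0.4 had 340, 360, 380 and 360 bp. KRAB-like members in at least 90% unique sequence had 360, 360, 320 and 380 bp (80 promoters). Clustered members with signal had 340 to 400 bp and single ones 760 to 1060 bp. Within the clusters, however, the 38 genes without a KRAB-like motif had 760 to 900 bp, and outside them the 26 KRAB-like genes had 300 to 480 bp. The highest bin upstream of the start, on average over libraries, was 0.437 of the maximum at KRAB-like members, 0.794 at the other Zfp genes and 0.676 at other genes. These widths belong to averages over promoters chosen by the same signal, and were not tested.

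**Figure D4:**
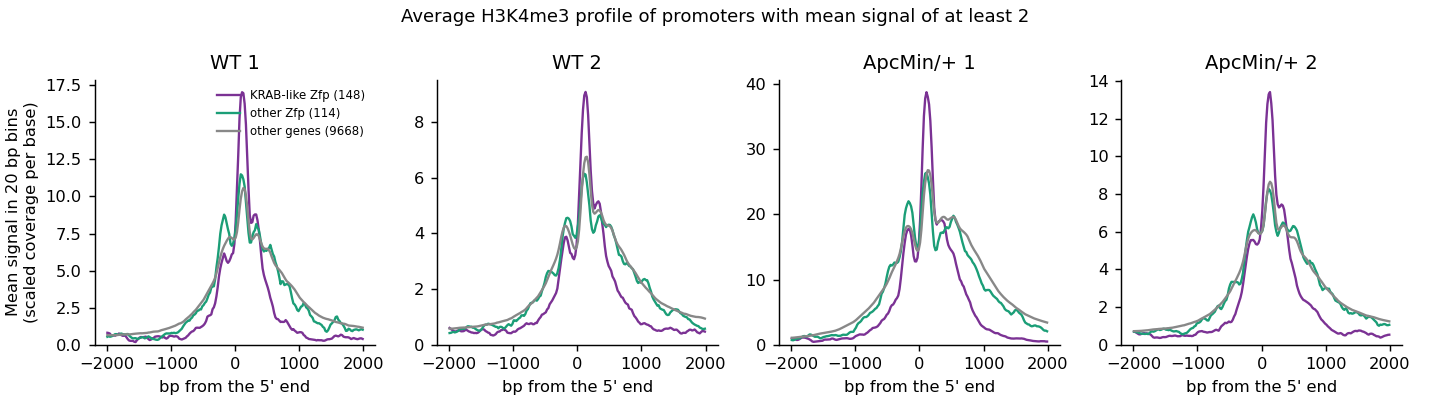
Mean H3K4me3 signal in 20 bp bins (y axis, scaled coverage per base) by distance from the 5′ end (x axis, bp, positive downstream) in each library, over promoters averaging 2 or more. The KRAB-like Zfp profile is higher at its maximum and lower beyond about 500 bp than those of the other Zfp genes and of all other genes.

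Short motifs were searched on both strands from 250 bases before to 50 after the 5′ end of every protein-coding gene. The ETS core CCGGAA was found at 127 members (34.9%) and at 17.5% of all promoters. Among promoters with a mean of at least 2 it was at 40.5% of Zfp and 30.6% of other promoters. The members with it had medians of 3.14, 2.61, 10.6 and 3.47, and those without it 2.44, 1.77, 6.27 and 2.68. The SP and KLF core GGGCGG, in contrast, was at 40.8% of the Zfp promoters with signal and 65.5% of the others with signal, and at 9435 of 21938 promoters. The CCAAT box was at 52.8% of KRAB-like members, 36.7% of the other members and 39.0% of all promoters. The YY1 core ATGGCGG was at 9.07% of members and 4.79% of all promoters, the CRE core TGACGT at 11.5% and 8.64%, and the NRF1 core GCGCATG at 7.69% and 4.96%. The TATA box TATAAA was at 6.87% of members and 12.7% of all, the E box CACGTG at 7.97% and 7.75%, and the TCF/LEF site CTTTGAT, of the factors that β-catenin partners, at 3.02% and 3.41%. Among promoters with a mean of at least 2, the Zfp and other shares were 8.8% and 8.6% for YY1, and 13.7% and 13.1% for CRE. They were 7.3% and 7.7% for NRF1, and 7.3% and 6.8% for the TATA box. For the E box they were 9.2% and 10.9%, for TCF/LEF 4.2% and 2.5%, and for the CCAAT box 44.7% and 39.3%. A match shows only that these letters are present, and copies within a cluster share sequence.

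The genes whose products act with KRAB proteins were marked in the same libraries. Of 18 corepressor genes, 16 had a mean signal of at least 2, with medians of 3.82, 2.73, 11.5 and 3.59. Cbx5 and Cbx3, which encode heterochromatin proteins, had means of 13.9 and 13.3. Setdb1, the H3K9 methyltransferase, was at 1.74, 1.48, 3.97 and 1.46, and Chd3, of the NuRD complex, had a mean of 2.07. Trim28 itself and Atf7ip, a Setdb1 partner, were below 2 at the 5′ end of the gene (means of 0.873 and 0.378), but reached 8.80 and 4.25 at another annotated start.

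ApcMin/+ and wild-type mice were compared in small intestine of normal appearance. No Zfp promoter passed the test. Of the 262 members tested among 9930 promoters, 0 were called by limma with Benjamini-Hochberg adjustment, and the smallest adjusted p was 0.683. Over all promoters tested 0 were called (0.0%). Before adjustment, p was under 0.05 at 2 members and at 132 of all promoters (1.33%). As deposited, 261 of the 262 members (99.6%) were higher in ApcMin/+, as were 99.2% of all tested promoters. Their median log2 difference was 0.83, against 0.85 for all tested promoters. Without ApcMin/+ replicate 1 the medians were 0.15 and 0.11. The entry level of 2 was a mean over all 4 libraries, so it favoured promoters high in ApcMin/+ replicate 1. Without this library 230 members passed it. Before centring, the ApcMin/+ pair lay entirely above the wild-type pair at 114 members (43.5%) and at 38.5% of all tested promoters, and entirely below at 0 members and at 0.161% of all.

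Each library was therefore also centred on its median tested promoter. Then 0 Zfp promoters were called, against 12 of all 9930 promoters (0.121%), and the smallest adjusted p of a member was 0.9995. Before adjustment, p was under 0.05 at 6 members (2.29%) and at 2.96% of all promoters. The median log2 difference of the members was -0.02, and 121 of 262 (46.2%) were higher in ApcMin/+, against 48.8% of all tested promoters. After centring, the ApcMin/+ pair lay above the wild-type pair at 30 members (11.5%, against 13.1% of all) and below it at 34 (13.0%, against 14.3%). Relative to all tested promoters the median Zfp promoter was 0.06 lower in ApcMin/+ than in wild-type on the log2(signal + 1) scale, at -0.14 and -0.13 in the wild-type and -0.26 and -0.12 in the ApcMin/+ libraries, so that the genotypes overlapped (exact permutation p = 1 over 2 against 2 libraries, for which 0.33 is the smallest possible). Clustered members differed from single members by -0.03 in the same comparison (exact permutation p = 1).

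The members named for their centred differences did not pass the test either. Zfp758 and Zfp944 start 53 bp apart on opposite strands of chromosome 17, so that 1 peak fills both windows. Zfp758 had 1.73, 1.49, 15.9 and 2.95, and its centred difference was 0.79 ± 0.36 (SE, adjusted p = 0.9995, limma). Zfp292 had 2.09, 1.09, 11.2 and 3.49, with a centred difference of 0.69 ± 0.38 (SE, adjusted p = 0.9995, limma). Zfp84 and Zfp472 followed with 0.54 and 0.51. At Zfp758 and Zfp944 both wild-type libraries were below 2, and the wild-type mean of Zfp292 was 1.59. Zfp758, Zfp944 and Zfp292 thus entered the test only through their ApcMin/+ values. In the other direction, Zfp947 had 2.44, 2.19, 3.65 and 1.22, with a centred difference of -0.90 ± 0.52 (SE, adjusted p = 0.9995, limma). Zfp964, Zfp467, Zfp771 and Zfp93 had centred differences of -0.78, -0.73, -0.72 and -0.72, in this order. In all 10 the genotypes did not overlap after centring, as the rule that named them required.

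**Figure D5:**
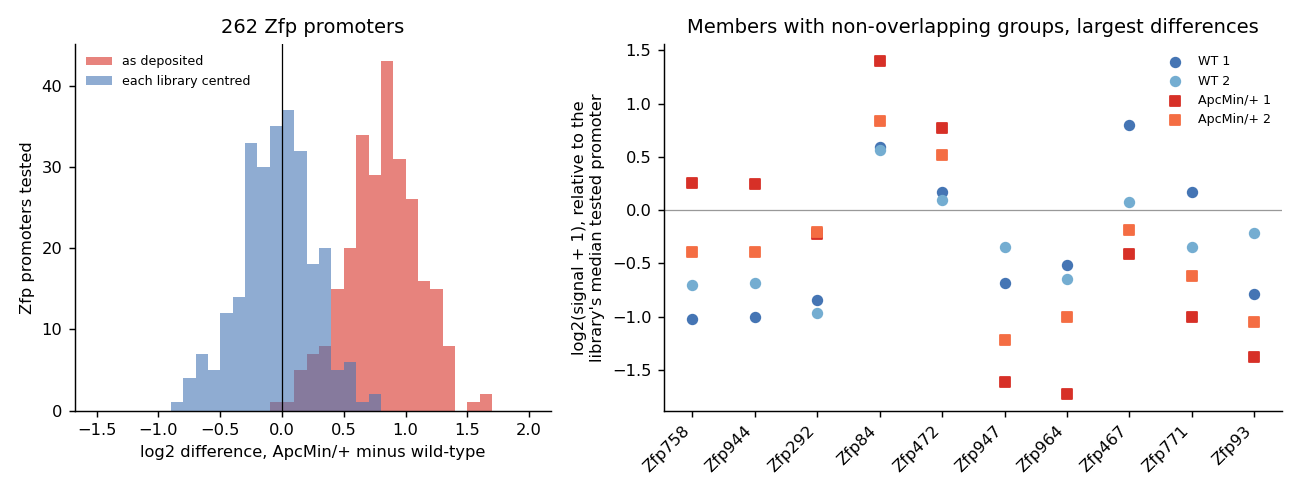
The left panel counts the 262 tested Zfp promoters (y axis) by their log2 difference between ApcMin/+ and wild-type (x axis), as deposited and with each library centred, with medians of 0.83 and -0.02. The right panel gives log2(signal + 1) relative to the median tested promoter of each library (y axis) for the 5 members highest and the 5 lowest in ApcMin/+ among those with non-overlapping groups (x axis); each point is 1 library.

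In simulated data with ApcMin/+ replicate 1 raised at all promoters, limma recovered 0% of 200 promoters changed 4-fold among 9930, and 93% after centring. The simulated fragments varied by counting error alone, without further spread between libraries at single promoters. How much would be recovered in the real data was therefore not measured. Smaller changes were not simulated. Without ApcMin/+ replicate 2, when both wild-type libraries are compared with the raised library alone (its spread taken to equal theirs), limma called 175 of 263 Zfp promoters and 6544 of 9987 in all (65.5%).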

How the data were processed

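CUT&RUN for H3K4me3 covered villus cells of 2 wild-type and 2 ApcMin/+ mice, grouped by the labels. The authors trimmed read pairs, aligned them to mm10 with Bowtie2, removed duplicates with Picard and reads of low mapping quality, and kept fragments of 150 to 500 bp. The deposited values are signal, the coverage per base written by HOMER, which the authors brought to 10000000 tags in each library, without a control subtracted or replicates pooled. Fragments in a window were its summed signal over the sum of the track per tag, and the median member held 7.98 and 20.3 fragments in the wild-type and 60.6 and 33.7 in the ApcMin/+ libraries, by replicate number. The floors (3 fragments) cover counting error only, whereas SD and SE measure the spread between libraries.

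Windows reached 1000 bp on each side of the 5′ end of GENCODE M21 genes on 21 chromosomes. CpG ratio, unique 25-mers and motifs were read from the genome of the same build, and KRAB-like motifs and zinc fingers from translated coding sequences by pattern. Promoters averaging 2 or more entered limma 3.58.1 (R 4.3.3), fitted with an intensity trend to log2(signal + 1). P-values were adjusted by Benjamini-Hochberg, called under 0.05, and the procedure was tested on simulated data. Fold changes are therefore on the log2(signal + 1) scale, which understates changes of low promoters. Levels were compared by two-sided exact sign-flip tests over libraries and genotypes by exact permutation tests. Alternatives were the window, start, CpG content, shared windows, cluster definition, unique sequence, pseudocount, filter, scaling, a replicate block and leaving out each library. Python 3.11.15 was used elsewhere.

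The genes named were the 8 highest and 5 lowest members (all 12 at 0, which tie), the highest and lowest of the 6 largest clusters, the 5 largest centred differences in each direction among non-overlapping groups, and 22 genes of known role. Others are named where a count was small or after their values were seen, as Zfp950, Zfp710, Zfp618 and Zfp574 were. The members and lists were chosen with earlier results of these data known. The peak widths and the centred fits without 1 library were chosen after seeing the data.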

Additional observations from a re-analysis of the deposited data

How the results depend on the processing

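The level of Zfp promoters above other promoters kept its direction under all 11 alternatives, from 0.08 (CpG ratio of at least 0.6) to 2.28 (under 0.6) on the log2 scale, and leaving out 1 library gave 1.11 to 1.59. The share of members with a mean of at least 2 moved to 58.0% in windows of 2000 bp (others 40.6%), 86.7% at a CpG ratio of at least 0.6 (others 79.2%) and 40.4% at a threshold of 5 (others 29.6%), and lay between 63.2% and 72.8% without 1 library. The difference between clustered and single members was 0.12 to 0.17 without 1 library and -0.0063 by the mean. The Zfp genotype difference relative to all promoters turned to 0.013 in windows of 500 bp and 0.63 with no filter on low signal, and lay from -0.12 to -0.0056 without 1 library. The clustered against single genotype difference turned to 0.0029 in windows of 500 bp, 0.023 at a mean signal of at least 5 and 0.025 with clusters of 250 kb, and lay from -0.099 to 0.043 without 1 library, the 0.043 without wild-type replicate 2. Its cause, and that of the other turns, was not tested. The number of Zfp promoters called was 0 under every alternative but 1 and ranged from 0 to 175 without 1 library, the 175 without ApcMin/+ replicate 2; with each library centred as well, it was 0 with any 1 library left out. With a replicate block, 0 Zfp promoters were called (1 of all), and the Zfp genotype difference was -0.06. The numbers were not taken to pair the mice, since only 2 pairs exist (correlation of same-numbered deviations 0.20 over 9930 promoters). The width at 50% of the maximum went from 525 to 670 bp for all members with signal and from 375 to 465 bp for clustered ones in sequence with at least 90% unique 25-mers. Without 1 library these were 493 to 567 bp and 367 to 387 bp, and 287 to 333 bp for KRAB-like members. The profile maximum began at 100 bp with any 1 library left out.

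Depth limits single members most in wild-type replicate 1, where the median member held 7.98 fragments. With 2 mice per genotype no exact p can be below 0.33, and with 4 libraries none below 0.13.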

Other observations

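The 7 Zfp genes on the X chromosome had little of the mark. Their medians were 0.697 and 0.617 in wild-type and 1.35 and 1.11 in ApcMin/+, and 1 of the 7 had a mean signal of at least 2. On chromosome 5, by contrast, 15 of 16 members had such a mean, and on chromosome 17, 36 of 41 did. On chromosome 2, 11 of 25 did, on chromosome 10, 2 of 5, and on chromosome 4, which holds the cluster of repeated sequence, 9 of 30. Shares over all promoters of each chromosome were not computed, so a trait of the chromosome and one of its Zfp genes cannot be told apart. Of the 43 clustered members without a KRAB-like motif, 38 (88.4%) had a mean of at least 2, with medians of 4.14, 2.92, 11.8 and 3.83, against 122 of 174 (70.1%) and medians of 2.46, 1.93, 7.22 and 2.98 for the clustered members with one. Of these windows, 93.0% and 43.1% had at least 90% unique sequence, and over all members in such sequence the shares at a mean of 2 were 77.2% without the motif and 80.8% with it. Of 102 members under a mean of 2, 50 had windows of at least 90% unique sequence, and 44 of these reached 2 at none of their annotated starts.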
